A study of Daucus carota subsp. sativus with 2 samples.

Results

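The flavonoid and anthocyanin enzymes of carrot root were followed in 1 library from an orange hybrid and 1 library from a red Delhi variety. The members are the transcripts whose deposited protein name contains a flavonoid enzyme term (chalcone, flavonol synthase, flavanone, flavonoid, anthocyanidin, dihydroflavonol, leucoanthocyanidin or anthocyanin) and which had 10 or more reads summed over both libraries. There were 7 of them among 19838 transcripts. The members were thus chosen by their names and by their summed reads, and their values are given as descriptions. The series labels call the orange carrot modified and the red carrot wild. Neither root was treated, and RNA was poly(A)-selected. The labels do not give the plants' age, the part of the root taken, or whether plants were pooled. With 1 library per variety no difference has a replicate check, and each statement below is about these 2 libraries.

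Flavonoids are phenolic compounds built from phenylalanine. Chalcone synthase condenses p-coumaroyl-CoA with malonyl-CoA into a chalcone, chalcone isomerase closes it into a flavanone, and flavanone 3-hydroxylase turns that into a dihydroflavonol. From there flavonol synthase makes flavonols, whereas dihydroflavonol 4-reductase and leucoanthocyanidin dioxygenase, also called anthocyanidin synthase, lead to anthocyanins, the pigments of purple carrots. Orange and red carrot roots owe their colour mainly to carotenoids instead.

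The orange library held 7432754 reads and the red library 11310179. Scaled counts are reads over a size factor (the median of ratios), 0.937 for orange and 1.07 for red, and all ratios below are of scaled counts. Intervals in parentheses are 95% exact (Clopper-Pearson) intervals and cover counting error only. A transcript was called lower or higher in orange where it differed by at least 2-fold and its interval excluded equality. Of the 16157 transcripts with 10 or more reads, 30.7% were lower in orange by that rule and 24.8% were higher. Of the 14868 with a mean scaled count of at least 10, the shares were 30.6% and 24.4%. Transcripts lower in orange made up 55.6% of the calls among the 14868, and 42.2% when libraries were scaled to their total reads, which moves log2 folds by 0.42 toward orange.

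The 7 members had few reads in the orange library. Of the 7 members, 6 were called lower in orange and none (0) higher, beside 30.7% and 24.8% of all transcripts with 10 or more reads. Together the members had 56 reads in orange and 4983 in red, which is 0.000753% of all reads in orange (interval 0.000569 to 0.000978) and 0.0441% in red (0.0428 to 0.0453). On scaled counts the sum was 78.1-fold lower in orange (60.1 to 104). With the flavone synthase I rows, flavonoid enzymes that the name terms leave out, the sum was 2.66-fold lower. The median log2 fold of the members, orange over red with a pseudocount of 0.5, was -4.69, against -0.07 for all 16157 transcripts. The median log2 ratio was -4.72 with no pseudocount and the members at 0 reads in orange set to their bounds. A mean scaled count of at least 10 was reached by 5 of the 7 members. Because a member could reach it through red alone, nothing is drawn from those 5 as a set. The limit of 10 summed reads could be reached through red alone too, as by the 2 members with 0 reads in orange. The 6 of 7, the median and the sum are therefore descriptions only. With 1 or more reads, 6 of the 14 matching rows were lower and 1 was higher, and no share over all transcripts is given at that limit. In bulk RNA, fewer cells of a type and less RNA per cell cannot be told apart.

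Chalcone synthase, the entry enzyme, carried the most reads of any member. CHS2 had 2 reads in orange and 2444 in red. It was 1073-fold lower in orange, with an interval of 297 to 8867 that is wide because orange gave so few reads. The other row named chalcone synthase, gCHS2, stayed below the limit of 10 reads with 0 in orange and 1 in red. Near-identical chalcone synthase copies can exchange reads in counting, and the pair summed to 2 reads in orange and 2445 in red.

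The chalcone isomerase family, whose namesake enzyme closes the ring of the chalcone, was the one step of the group with more than 10 reads in orange. CHI (DCAR_027694) had 29 reads in orange and 868 in red and was 26.3-fold lower in orange (18.2 to 39.5). The second family member, DCAR_017582, had 18 reads in orange and 236 in red and was 11.5-fold lower (7.13 to 19.8). The deposited name gives only the family, which in plants also holds proteins without isomerase activity. The interval of neither family member overlapped that of CHS2, whose lower bound was 297-fold, so in these libraries the gap was larger at chalcone synthase than at the isomerases.

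**Figure D1:**
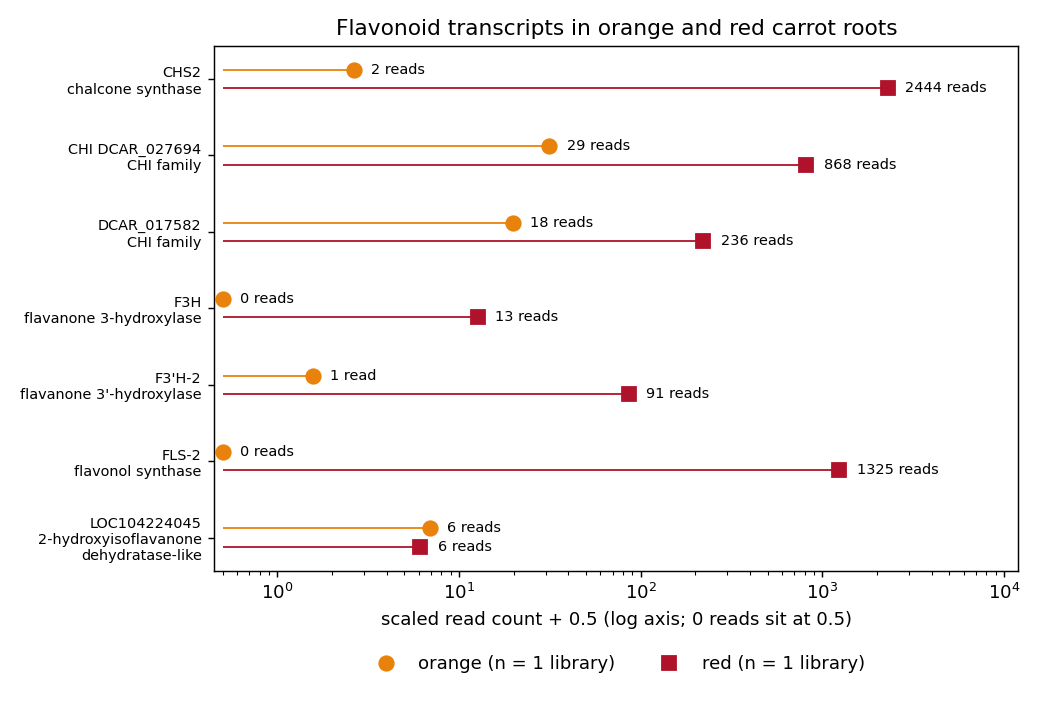
Scaled read counts plus 0.5 (log axis) of the 7 flavonoid members in the orange library (circles, upper line of each pair) and the red library (squares, lower line), with the reads printed beside each point. FLS-2 and F3H have 0 reads in orange and 1325 and 13 in red, and only the 2-hydroxyisoflavanone dehydratase-like row has equal reads, 6 and 6.

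Flavonol synthase, which makes flavonols such as quercetin and kaempferol from dihydroflavonols, had reads in red alone. FLS-2 (DCAR_017388) had 0 reads in orange and 1325 in red. Against a floor of 3 reads in the orange library it was at least 388-fold lower in orange. A second flavonol synthase row, FLS-1, had 0 reads in orange and 2 in red.

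The hydroxylases between the isomerase and flavonol synthase had fewer reads. The row named flavanone 3'-hydroxylase (F3'H-2), by its symbol a cytochrome P450 that adds a hydroxyl group to the B ring, had 1 read in orange and 91 in red. It was 79.9-fold lower in orange, within an interval of 14.0 to 3191. F3H, flavanone 3-hydroxylase, which feeds both flavonols and anthocyanins, had 0 reads in orange and 13 in red, at least 3.81-fold lower in orange against the floor of 3 reads. Neither library held many reads of F3H, and that row sits just inside the limit of 10.

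The remaining member had no call. The 2-hydroxyisoflavanone dehydratase-like row (LOC104224045) had 6 reads in orange and 6 in red, a ratio of 1.14 orange over red with an interval of 0.304 to 4.26, so a difference within that range was not detectable at this depth. The enzyme is known from isoflavonoid synthesis in legumes. It sat with F3H at the lower edge of the group, with 12 reads in all.

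Rows named for the late anthocyanin steps had almost no reads in either library. There were 7 rows, early and late steps together, that matched the name terms and stayed under 10 reads. These rows had 12 reads summed in orange and 8 in red. The nearest to the limit was dihydroflavonol 4-reductase-like1 (TCM_007619), with 9 reads in orange and 0 in red. It was called higher in orange, at least 3.42-fold against the floor of 3 reads, the opposite direction to the 6 members above. It was followed by a flavanone 3-dioxygenase (LOC104243922) with 3 and 0. DFR1, dihydroflavonol 4-reductase, had 0 reads in orange and 2 in red, and LDOX-1, leucoanthocyanidin dioxygenase/anthocyanidin synthase, also had 0 and 2. Another isomerase family row (CHI DCAR_019805) had 0 and 1. Of these 7 rows, 5 had reads in red alone and 2 in orange alone. Summed, the 2 dihydroflavonol 4-reductase rows had 9 reads in orange and 2 in red, 5.12-fold higher in orange with an interval of 1.06 to 48.7, and 6.85-fold higher with total-read scaling. All 9 orange reads of that sum came from the row named only reductase-like1, and both red reads came from DFR1. For LDOX-1 a difference was not detectable at this depth.

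**Figure D2:**
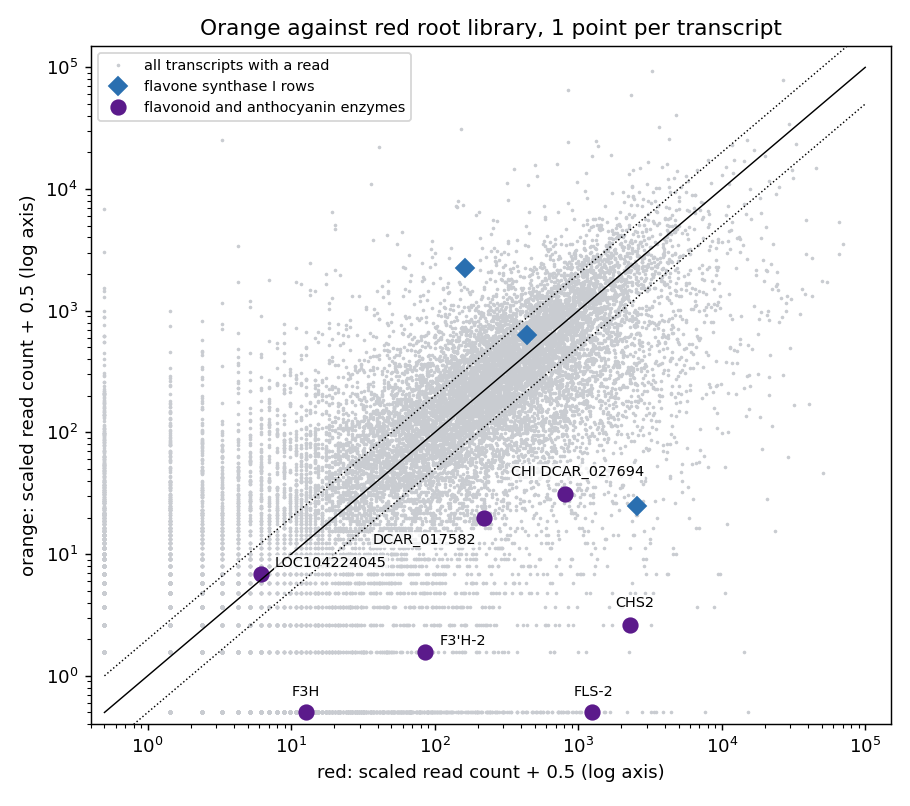
Scaled read count plus 0.5 of each transcript in the orange library (vertical, log axis) against the red library (horizontal, log axis), with equality as a solid line and 2-fold as dotted lines. Of the 7 flavonoid members, 6 lie below the lower dotted line, and the 3 flavone synthase I rows lie below, between and above the dotted lines.

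The authors' deposited table gave 2 of the 7 members an adjusted p of at most 0.05. In the authors' deposited table FLS-2 had a p-value of 3.69e-05 and an adjusted p of 0.0390, and CHS2 a p-value of 1.55e-04 and an adjusted p of 0.0493. The adjusted p in the authors' deposited table was 0.473 for CHI (DCAR_027694), 0.853 for F3'H-2 and 1 for DCAR_017582, F3H and LOC104224045. An adjusted p of at most 0.05 was given in the authors' deposited table to 63 of 19838 transcripts (0.318%), of which 44 were listed only in red, 13 only in orange and 6 in both. The labels and headers do not say how a p-value was reached with 1 library per variety.

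The general steps that lead to chalcone synthase differed by smaller ratios than chalcone synthase itself. The phenylpropanoid entry list had 4 transcripts with a mean scaled count of at least 10, of which 2 were lower in orange and none (0) higher, beside 30.6% and 24.4% of all such transcripts. PAL-1, the phenylalanine ammonia-lyase row with the most reads, which starts the pathway from phenylalanine, had 7044 reads in orange and 15280 in red, 1.91-fold lower in orange (1.85 to 1.96). Another phenylalanine ammonia-lyase (rna28051) had 345 and 3653 reads and was 9.30-fold lower (8.33 to 10.4). DcPAL4 had 416 and 3321 reads and was 7.01-fold lower (6.33 to 7.78). The intervals of rna28051 and DcPAL4 both overlapped that of the isomerase family row DCAR_017582 (7.13 to 19.8). The name terms of the list missed cinnamic acid 4-hydroxylase, the next enzyme, whose rows were added after their values were seen. C4H-1 had 966 reads in orange and 2010 in red, 1.83-fold lower in orange (1.69 to 1.98), and C4H-2 had 25 and 2, a ratio of 14.2 orange over red (3.55 to 124). The 4-coumarate-CoA ligase row (rna4102), which makes the p-coumaroyl-CoA used by chalcone synthase, had 127 reads in orange and 152 in red, a log2 fold of -0.07.

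Summed by enzyme, a grouping made after the values were seen, phenylalanine ammonia-lyase was 2.50-fold lower in orange (2.44 to 2.57), and 1.87-fold lower when libraries were scaled to total reads. Cinnamic acid 4-hydroxylase was 1.78-fold lower (1.65 to 1.93). The 4-coumarate-CoA ligase row was 1.05-fold lower in orange (0.825 to 1.34), and 1.27-fold higher with total-read scaling. The chalcone isomerase family summed to 47 reads in orange and 1105 in red, 20.6-fold lower in orange (15.4 to 28.3). The counting intervals of the 3 general steps did not reach those of chalcone synthase, the isomerase family, flavanone 3'-hydroxylase or flavonol synthase under the main scaling, whereas that of the 2 flavanone 3-hydroxylase and dioxygenase rows, with 3 reads in orange and 13 in red, overlapped them (3.81-fold lower, 1.05 to 20.8).

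**Figure D3:**
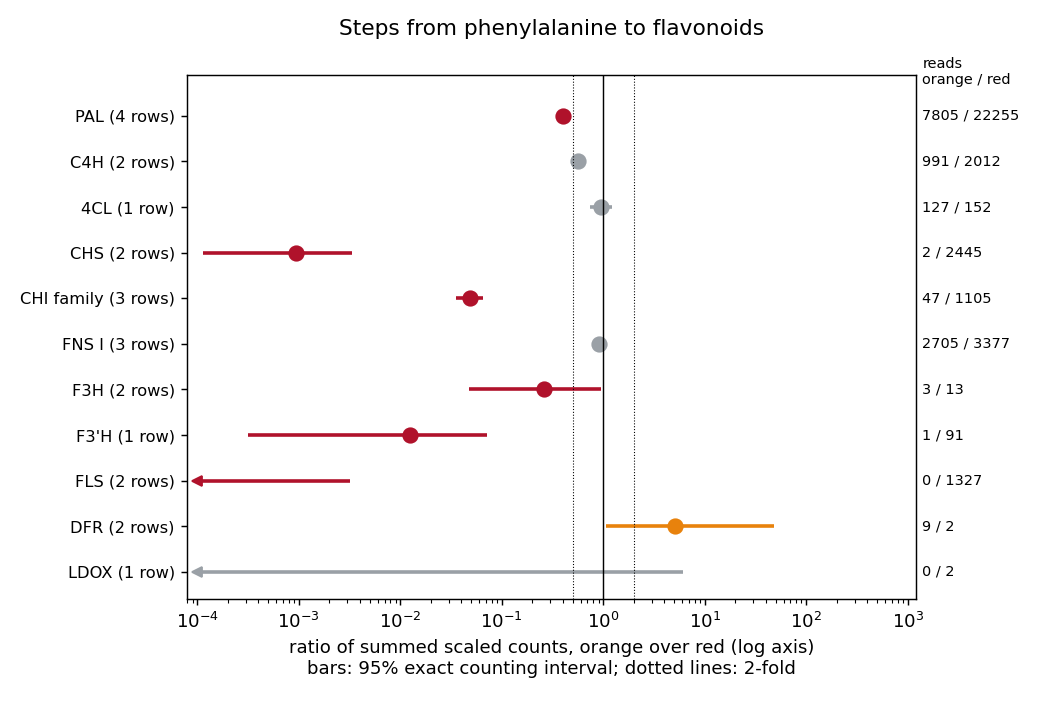
Ratio of summed scaled counts, orange over red (log axis), for 11 enzymes from phenylalanine to anthocyanidins, with 95% exact counting intervals and the summed reads of each library at the right; arrows mark intervals that run on to 0 where orange has 0 reads. PAL, C4H and 4CL lie between 0.399 and 0.951, while CHS lies at 0.000931 and the CHI family at 0.0484.

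Flavone synthase I, which also uses a flavanone, had reads in both libraries. It makes flavones such as apigenin and belongs, in Apiaceae such as parsley, to the same dioxygenase family as flavanone 3-hydroxylase. The name terms do not take in its 3 rows, which were added after their values were seen. One row named FSNI-3 (rna14960) had 23 reads in orange and 2738 in red, 105-fold lower in orange (69.5 to 165). FSNI-2 (rna15379) went the other way, with 2090 reads in orange and 173 in red, 13.8-fold higher in orange (11.8 to 16.2). The other FSNI-3 row (rna38363) had 592 reads in orange and 466 in red, a ratio of 1.45 (1.28 to 1.64). Summed, flavone synthase I had 2705 reads in orange and 3377 in red. That sum was 1.10-fold lower in orange (1.04 to 1.15), and 1.22-fold higher in orange with total-read scaling. Both FSNI-3 rows carry the same locus name, DCAR_009489, and reads of similar copies can be exchanged in counting, so the split between rows is less certain than their sum. The isoflavone reductase-like row (F775_22115), also added, had 69 reads in orange and 107 in red, with a ratio of 0.734 orange over red (0.534 to 1.003).

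Enzymes of precursor supply were lower in orange or had no call. In the shikimate pathway and phenylalanine synthesis, 6 of 11 transcripts with a mean scaled count of at least 10 were lower in orange and none (0) higher, beside 30.6% and 24.4% of all such transcripts, with a median log2 fold of -1.03 against -0.06 for all 14868. With total-read scaling the counts were 5 lower and 1 higher. Phospho-2-dehydro-3-deoxyheptonate aldolase DCAR_019217, which opens the shikimate pathway, had 307 reads in orange and 5663 in red, 16.2-fold lower in orange (14.4 to 18.2). Arogenate dehydratase DCAR_006147, at the end of phenylalanine synthesis, had 385 and 4768 reads and was 10.9-fold lower (9.80 to 12.1). The other arogenate dehydratase rows had no call. DCAR_012164 had 182 and 107 reads, a ratio of 1.94 orange over red (1.52 to 2.48). CICLE_v10015131mg was 1.91-fold lower (1.48 to 2.48) and TCM_011909 was 1.38-fold lower (1.06 to 1.80). The biotin carboxylase row (LOC104606258), a subunit of the acetyl-CoA carboxylase that makes malonyl-CoA, had 446 and 1353 reads, 2.66-fold lower in orange (2.39 to 2.97) and 1.99-fold with total-read scaling.

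The lignin branch draws on the same p-coumaroyl-CoA. Of 7 monolignol transcripts with a mean scaled count of at least 10, none (0) was lower in orange and 3 were higher, with a median log2 fold of 0.43, beside 30.6% and 24.4% of all such transcripts. Over all 9 rows with a read, 1 was lower, ferulate 5-hydroxylase (rna34402) with 0 reads in orange and 7 in red, and 4 were higher. Those counts have no share over all transcripts with a read beside them. Cinnamyl alcohol dehydrogenase (rna33524), which makes the alcohols that lignin is built from, had 1860 reads in orange and 748 in red, 2.83-fold higher in orange (2.60 to 3.09). Caffeoyl-CoA O-methyltransferase (rna1765) had 773 and 769 reads, a ratio of 1.14 (1.03 to 1.27). Another row of that name (rna46578) had 468 and 756 reads, a ratio of 0.705 (0.627 to 0.792). The shikimate/quinate hydroxycinnamoyltransferase HCT1 had 166 and 324 reads, a ratio of 0.583 (0.481 to 0.706). Neither of these lower ratios reached 2-fold. The 3 NADPH-cytochrome P450 reductases, which pass electrons to C4H and to flavonoid hydroxylases, had no call in either direction. The one with the most reads (rna28486) had 2409 reads in orange and 1562 in red, a ratio of 1.76 (1.65 to 1.87), which with total-read scaling was 2.35 and counted as higher. The next (DCAR_014700) had 728 and 648 reads, a ratio of 1.28 (1.15 to 1.42). The remaining reductase (DCAR_020124) went the other way, with 375 and 806 reads, 1.89-fold lower in orange (1.67 to 2.14).

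**Figure D4:**
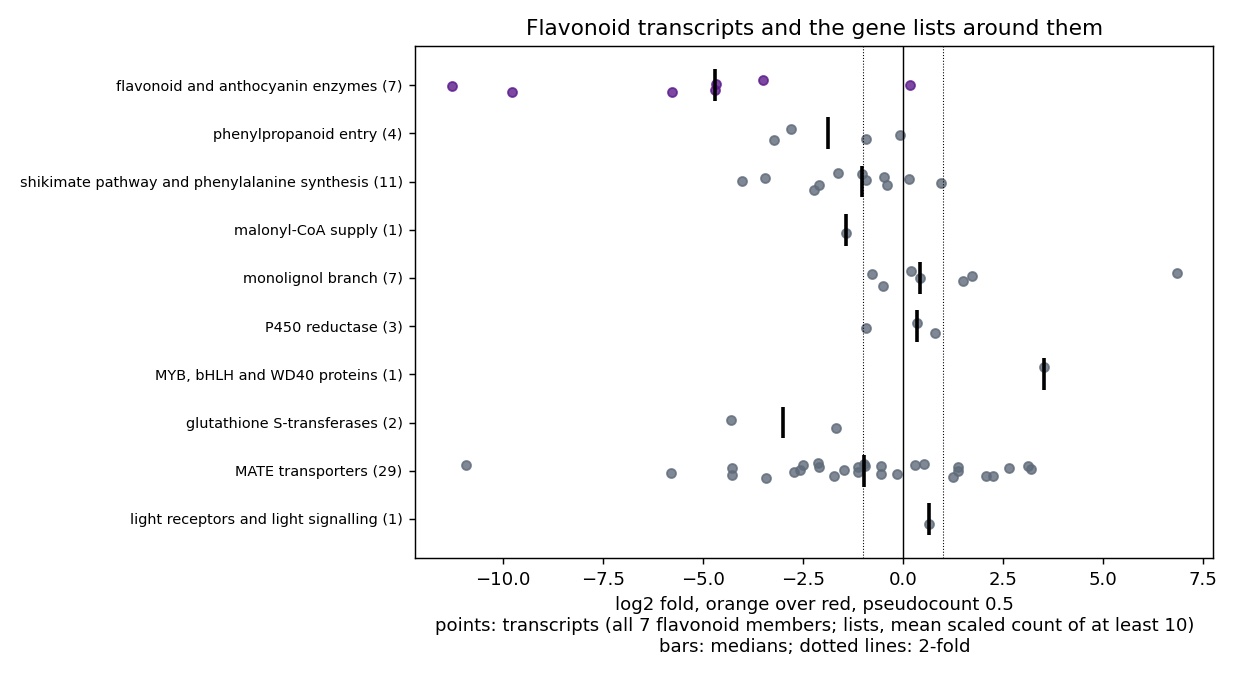
Log2 fold, orange over red, of the 7 flavonoid members and of the transcripts of each gene list with a mean scaled count of at least 10; bars are medians and dotted lines mark 2-fold. The median is -4.69 for the flavonoid members, -1.87 for phenylpropanoid entry, -1.03 for the shikimate list and 0.43 for the monolignol branch.

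The families that hold flavonoid regulators and carriers were thinly covered by the deposited names. A basic helix-loop-helix protein (Ccrd_022059), of the family whose members partner MYB factors on anthocyanin genes, had 815 reads in orange and 80 in red, 11.6-fold higher in orange (9.21 to 14.8). The name does not say which member of the family it is. The only MYB row in the list was the transcription repressor MYB4 (rna23730), known in Arabidopsis as a repressor of phenylpropanoid genes, with 0 reads in orange and 4 in red. Glutathione S-transferases are a family that includes anthocyanin carriers. Of the 3 with a read, 2 were lower in orange and none (0) higher, with a median log2 fold of -1.68. Of all transcripts with a mean scaled count of at least 10, a stricter filter than that of these 3 rows, 30.6% were lower and 24.4% higher. With 3 rows, nothing is drawn about carriers. The filter on the mean scaled count removes the row without a call (rna31762, 2 reads in orange and 0 in red), and the median is then -2.99. The U22 row (rna26668) had 20 reads in orange and 74 in red and was 3.25-fold lower (1.96 to 5.62). The tau 7 row (TCM_020894) had 2 and 55 reads and was 24.2-fold lower (6.38 to 204).

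MATE transporters include some that load flavonoids into the vacuole. Of 29 with a mean scaled count of at least 10, 14 were lower in orange and 8 higher, beside 30.6% and 24.4% of all such transcripts, with a median log2 fold of -0.96. Over all 39 with a read, 16 were lower and 8 higher, for which no share over all transcripts with a read is given. DCAR_019656 had 3326 reads in orange and 1453 in red, 2.61-fold higher in orange (2.45 to 2.77). DCAR_011378 had 0 and 1036 reads and was at least 303-fold lower in orange. The phytochrome row (DCAR_026982), a light receptor, was the one row of the light signalling list, with 528 reads in orange and 385 in red, a ratio of 1.56 (1.37 to 1.79), or 2.09 with total-read scaling. The list of dioxygenases related to flavanone 3-hydroxylase held LDOX-1 alone, described above.

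Most green tissue marker rows, largely chlorophyll a-b binding proteins, differed in the same direction as 6 of the 7 flavonoid members. Green tissue markers were chlorophyll a-b binding proteins, photosystem subunits and the small chain of RuBisCO. Of the 43 with 10 or more reads, 35 were lower in orange and 3 higher, beside 30.7% and 24.8% of all such transcripts. Chlorophyll a-b binding proteins made up 32 of the 43, with 30 lower and 2 higher. The 45 marker rows held 23302 reads in orange and 484275 in red, 0.314% (0.309 to 0.318) and 4.28% (4.27 to 4.29) of all reads, and 4 were at 0 in orange and none (0) in red. Storage root markers were rows named for expansin, extensin, sucrose synthase, beta-fructofuranosidase, snakin or the allergen Dau c 1. Of the 21 with 10 or more reads, 12 were higher in orange and 5 lower, beside 24.8% and 30.7% of all such transcripts. Expansins made up 14 of the 21, with 8 higher and 3 lower. The root list held 0.0967% of reads in orange (0.0944 to 0.0989) and 0.0434% in red (0.0422 to 0.0446), with 4 of its 27 rows at 0 in orange and 3 in red. The part of either tissue signal in the flavonoid result was not tested.

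The transcripts nearest to CHS2 in level over both libraries included 1 of that green group. The 5 nearest with an informative protein name, by distance on log2(scaled count + 0.5), were a chlorophyll a-b binding protein (DCAR_005105, 3 reads in orange and 2164 in red, distance 0.52), a tryptophan synthase (CISIN_1g012347mg, 4 and 2665, distance 0.87), an rRNA N-glycosidase (DCAR_007849 DCAR_007850, 2 and 988, distance 1.31), a vacuolar cation/proton exchanger (DCAR_015419, 4 and 1205, distance 1.33) and a sulfotransferase (DCAR_030368, 1 and 1071, distance 1.41). With 2 libraries, nearness says only that the levels were alike.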

How the data were processed

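Poly(A) RNA from carrot roots was sequenced, 1 library for orange and 1 for red; groups come from the sample titles. HISAT, HTSeq, DESeq, cutadapt and FastQC are the tools listed by the submitters' processing notes; their versions and settings, the genome build and annotation were not given in the sources used here. Read counts per transcript were deposited. The deposited normalised signal is the read count times a constant (1.07 for orange, 0.937 for red). The deposited comparison tables give a fold (ratio) of orange over red, its log2, and a p-value and adjusted p-value per transcript.

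Here, size factors were taken as the median of ratios to the geometric mean, and equal the authors' constants inverted. Ratios have 95% Clopper-Pearson intervals; a bound uses a floor of 3 reads in 1 library. Log2 folds use a pseudocount of 0.5. Python 3.11.15, scipy 1.17.1 and, for TMM factors, edgeR 4.0.16 were used; the ratio and interval code was tested on simulated data. No p-value was computed. Rows lacking any protein name (160, with 0.827% of reads in orange and 1.27% in red) were kept. Names were uninformative for 81.3% of rows, so enzymes can be hidden there. None (0) of the 7 members matched the RefSeq carrot gene table, so no coordinates or sequences are given.

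Members and the 10 gene lists were chosen with earlier results of these data known. All members are named, plus the 2 transcripts of highest mean scaled count of each list and the 5 nearest to the top member; other names were chosen after their values were seen. The alternatives were other scalings, pseudocounts, fold thresholds, read minimums and name patterns.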

Additional observations from a re-analysis of the deposited data

How the results depend on the processing

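No paired analysis was possible because each variety has 1 library. The count of members lower in orange was 6 of 7 under total-read and TMM scaling and at 4-fold and 1.5-fold thresholds. Shares of all transcripts are given only for the main scaling at 2-fold, with 10 or more reads or a mean scaled count of at least 10. Counts at other settings have no matched share beside them, so nothing is drawn from them about stability. The narrower name pattern removes the 2 isomerase family rows and also LOC104224045, the one member with no call, which leaves 4, all lower. A minimum of 50 reads or a mean scaled count of at least 10 keeps the same 5 members, which pass through their red reads, so their calls and median say nothing about stability. With 1 or more reads, 6 of 14 were lower and 1 was higher in orange. With the flavone synthase rows added after seeing the data, 7 of 10 were lower and 1 was higher. The median log2 fold of the members was -2.25 with 1 or more reads, -5.77 for those 5, -7.77 with the narrower pattern and -6.19 with a pseudocount of 0.1. The summed ratio, 78.1-fold lower in orange, was 58.5-fold with total-read scaling, 41.3-fold without CHS2, 1134-fold with the narrower pattern and 2.66-fold with the flavone synthase rows added. Over the gene lists, 59 transcripts had a mean scaled count of at least 10. Of these, 25 were lower and 12 higher in orange, beside 30.6% and 24.4% of all such transcripts. With total-read scaling the counts were 21 and 15. That scaling also took transcripts lower in orange from 55.6% to 42.2% of all calls. Members with 0 to 2 reads in orange have ratios limited by depth, and the spread between plants is unknown.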
